A study of Mus musculus with 18 samples.

Results

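Transcripts of meiotic prophase and of later spermatocytes were followed in whole testes of hypogonadal (hpg) male mice given follicle-stimulating hormone (FSH). The genes were 38 named genes of meiosis, taken where a probe set of the array carried that gene symbol alone, with the probe set of highest mean level standing for each gene. A probe set was found for 32 of the 38, among 12393 genes measured this way. Of 20 prophase genes 16 were measured, and of 18 late spermatocyte genes 16. Sycp2, Syce1, Mei1, Mei4, Calr3 and Spag6 were not analysed here.

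Every animal was an hpg male, 10 weeks old. The hpg mouse makes no gonadotrophin-releasing hormone and therefore has very little FSH or luteinising hormone of its own. Treated mice received 8 IU of recombinant FSH (rFSH, Gonal F) under the skin in 0.2 ml, repeated every 12 h over 12 h (4 mice), 24 h (3 mice) or 72 h (4 mice), and were killed 1 h after the last dose. The 7 controls were hpg males that received nothing, so the injection itself and FSH cannot be told apart. Each of the 18 arrays (Affymetrix MOE430A, 1 colour) held RNA from 1 mouse.

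In meiotic prophase the homologous chromosomes pair along the synaptonemal complex, are held by meiotic cohesins and exchange DNA through programmed breaks. Later spermatocytes switch on proteins of sperm energy supply, motility and fertilisation, and spermatids then pack their DNA with transition proteins and protamines. FSH acts on Sertoli cells, which carry its receptor and nurse the germ cells. Without gonadotrophins, spermatogenesis in the hpg testis largely stops during meiosis. In whole testis RNA, fewer cells of a type and less RNA per cell cannot be told apart.

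The arrays fell into 2 technical sets, read from a bacterial spike-in RNA (Dap). It was at log2 8.05 to 8.86 on 12 spiked arrays, which held all 12 h and 72 h mice and controls 4 to 7. It was at 2.70 to 3.41 on 6 unspiked arrays, which held the 24 h mice and controls 1 to 3. Each time was therefore set against controls of its own set, and the main comparisons took no treatment difference across the sets. Ranges over all 18 arrays span both sets and are descriptions. Controls 1 to 3 set against controls 4 to 7 gave a call at 9.31% of probe sets, and an unadjusted p under 0.05 at 27.4% of them and at 8 of the 32 genes. Among the 32 genes 1 was called there, Mybl1, a transcription factor gene of spermatocytes (0.46 ± 0.14 higher in controls 1 to 3, log2 ± SE, limma adjusted p = 0.0452). Its mean level was low, at 3.22, and it lay under log2 4 in all 18 arrays. Without control 6, described next, it was not called (0.48 ± 0.15, limma adjusted p = 0.0691). The testis label held, as the 11 measured Sertoli cell genes averaged log2 8.79 to 9.68 per array and the germ cell genes Dazl (10.39 to 11.21) and Ddx4 (7.83 to 10.03) were high in every array.

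Control 6 stood apart from the other arrays. Of 20 measured spermatid genes, 18 were more than 1 log2 unit above all other arrays in this mouse. Their median level was 9.22 in control 6 and 2.59 to 2.94 in the other 17 arrays. Prm1, a protamine gene, read 12.04 in control 6 and 2.85 to 3.85 elsewhere, and Prm2 read 12.30 against 2.88 to 3.40. The transition protein genes Tnp1 and Tnp2 read 11.65 and 12.06 there, with at most 4.49 and 2.89 elsewhere. Where stated, results that use controls 4 to 7 are therefore also given without control 6, and the others include it.

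**Figure D1:**
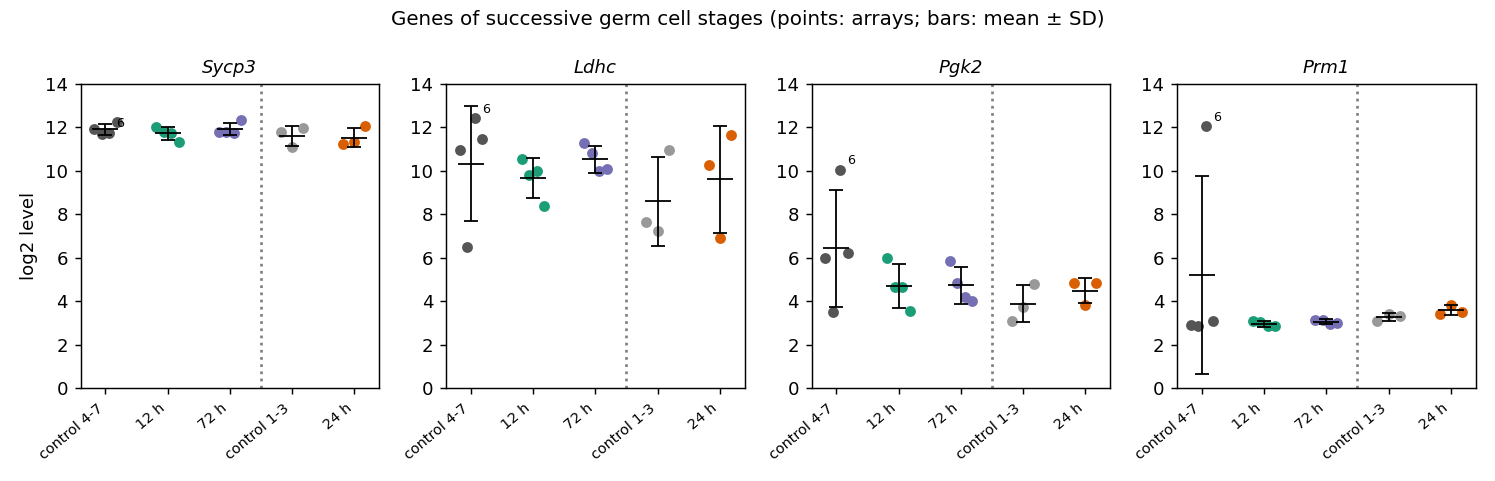
Log2 level of Sycp3 (prophase), Ldhc and Pgk2 (late spermatocytes) and Prm1 (spermatids) in every array, by group, with mean and SD; the number 6 marks control 6 and the dotted line separates the technical sets. Sycp3 lay between 11.09 and 12.33 in all 18 arrays, Ldhc between 6.48 and 12.42, and Prm1 was high in control 6 alone.

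After 12 h of FSH, transcripts of the recombination proteins Dmc1 and Rad51c and of the synaptonemal complex protein Syce2 were lower than in controls 4 to 7. Dmc1 fell 1.49-fold, Rad51c 1.60-fold and Syce2 1.34-fold. These were 3 of 32 genes called lower (adjusted p below 0.05), where 2.16% of all probe sets were called lower. None of the 32 was called higher, against 3.2% of all probe sets. All 16 prophase genes had a negative estimate, with a median of -0.25 beside -0.0048 over all genes and -0.0381 over genes with a mean level of at least 4. Of these, 5 of 16 had an unadjusted p under 0.05, as did 15.5% of all probe sets.

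Dmc1 encodes the recombinase of meiosis, which pairs a broken strand with the homologue. It read 7.98, 8.42, 8.15 and 7.94 in the 12 h mice and 8.56, 8.80, 8.52 and 8.92 in controls 4 to 7. Every treated mouse lay below every control, and the difference was -0.58 ± 0.14 (limma adjusted p = 0.0267, n = 4 against 4). A dimmer probe set of Dmc1 gave -0.64 ± 0.22 and was not called (adjusted p = 0.140). Without control 6 the difference was -0.64 ± 0.15 and still called (adjusted p = 0.0280).

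Rad51c works in homologous recombination in many cell types, not in meiosis alone. It read 5.83, 6.38, 6.23 and 6.19 at 12 h and 6.50, 6.61, 7.26 and 6.98 in the controls, with control 6 highest. The groups did not overlap, and the difference was -0.68 ± 0.17 (limma adjusted p = 0.0323). Without control 6 it was -0.54 ± 0.16 and not called (adjusted p = 0.0890). A second probe set, at a mean level of 3.87, gave -0.16 ± 0.10.

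Syce2 belongs to the central element of the synaptonemal complex. Its levels were 10.27, 10.15, 9.78 and 9.74 at 12 h and 10.36, 10.34, 10.40 and 10.51 in the controls, again without overlap. The difference of -0.42 ± 0.12 lay at the edge of the threshold (limma adjusted p = 0.0495) and was not called without control 6 (-0.42 ± 0.13, adjusted p = 0.0932). Smc1b, the meiotic cohesin subunit, had a larger difference that missed the threshold (-0.72 ± 0.20, adjusted p = 0.0545). Without control 6 Smc1b gave -0.69 ± 0.23 (limma adjusted p = 0.120). It read 8.73, 9.26, 8.61 and 8.50 at 12 h and 9.21, 9.29, 9.60 and 9.90 in the controls, so 1 treated mouse overlapped them. It read 9.07, 9.25, 8.80 and 9.15 at 72 h, and 9.09, 8.90 and 9.57 at 24 h against 9.16, 9.65 and 9.71 in controls 1 to 3, and overlapped the controls at both times.

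Each of these calls rested on single arrays and on the error taken from all 18 arrays. Within the spiked set alone the differences were the same and none was called, with adjusted p of 0.0756 for Dmc1, 0.0620 for Rad51c and 0.0874 for Syce2. Dmc1 was lost without 12 h replicate 1, 3 or 4 or control 5 or 7 (adjusted p = 0.0755, 0.0588, 0.0903, 0.0685 and 0.0893). Rad51c was lost without 12 h replicate 1, 3 or 4 or control 6 or 7 (adjusted p = 0.0950, 0.0621, 0.0716, 0.0890 and 0.0947). Syce2 kept its call in 5 of 18 fits that left out 1 array, namely those without 12 h replicate 1 or 2, 24 h replicate 1 or 3, or 72 h replicate 3. Over all 25 alternatives the adjusted p ranged from 0.00445 to 0.985 for Dmc1, from 0.0181 to 0.997 for Rad51c and from 0.0151 to 0.814 for Syce2, and the sign held in each.

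**Figure D2:**
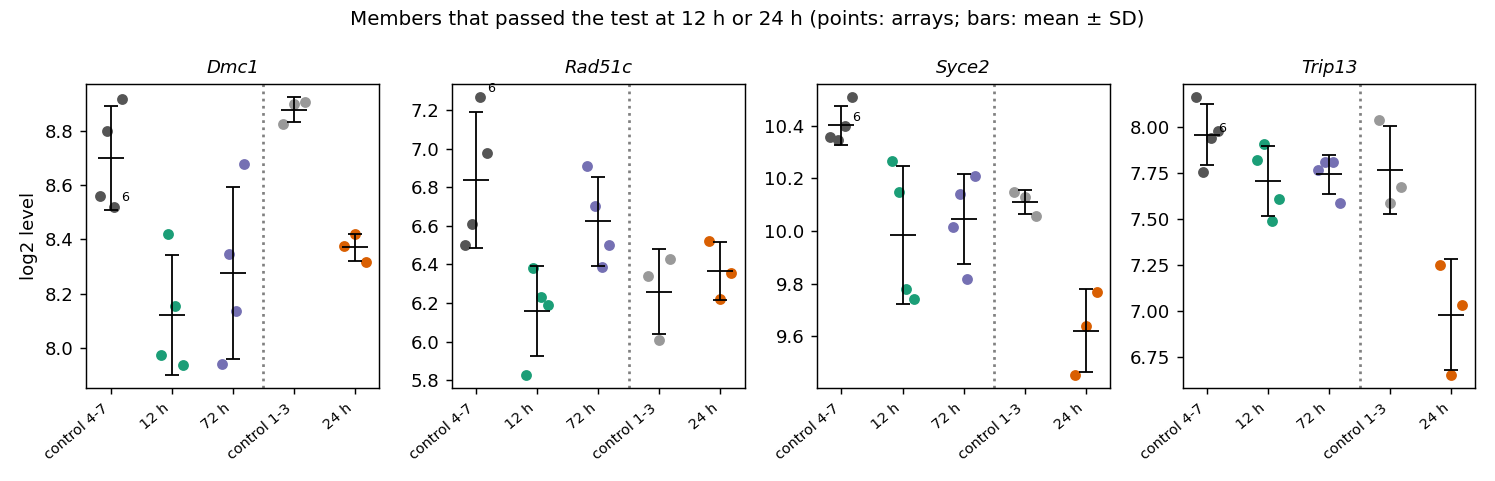
Log2 level of the 4 genes called at 12 h or 24 h in every array, by group, with mean and SD; the number 6 marks control 6, the dotted line separates the technical sets and each panel has its own axis. Dmc1, Rad51c and Syce2 in the 12 h mice lay below all of controls 4 to 7, and Syce2 and Trip13 in the 24 h mice lay below all of controls 1 to 3.

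After 24 h, Trip13 and Syce2 were lower than in controls 1 to 3, by 1.73-fold and 1.40-fold. These were 2 of 32 genes called lower, where 7.26% of all probe sets were called lower, and 0 of 32 were called higher, against 6.1%. Of the 16 prophase genes 12 had a negative estimate, with a median of -0.23 beside 0.038 over all genes and -0.0902 over genes with a mean level of at least 4. The prophase genes with an unadjusted p under 0.05 at 24 h were Syce2, Trip13, Dmc1 and Stag3, where 31.3% of all probe sets had one.

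Trip13 is an ATPase that removes Hormad proteins from paired chromosome axes and also acts in the mitotic spindle checkpoint. It read 7.25, 6.65 and 7.03 in the 24 h mice and 8.03, 7.59 and 7.67 in controls 1 to 3. The groups did not overlap, and the difference was -0.79 ± 0.16 (limma adjusted p = 0.00489, n = 3 against 3). The call held in each of the 18 fits that left out 1 array. It was lost within the unspiked set alone (adjusted p = 0.141) and with the mean of its 2 probe sets (-0.36, adjusted p = 0.0688). The dimmer probe set gave 0.07 ± 0.18, so the probe sets of this gene disagreed.

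Syce2 read 9.45, 9.64 and 9.77 at 24 h and 10.15, 10.13 and 10.06 in controls 1 to 3, a difference of -0.49 ± 0.13 (limma adjusted p = 0.0264). All treated mice lay below all controls. The call was lost within the unspiked set alone (adjusted p = 0.0815), and without 24 h replicate 1 or 2 or control 1 or 2 (adjusted p = 0.0695, 0.0610, 0.0858 and 0.0614). Over all 26 alternatives the adjusted p ranged from 0.00212 to 0.0898 for Syce2 and from 0.000347 to 0.141 for Trip13.

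Dmc1 was also apart at 24 h, with 8.37, 8.42 and 8.32 against 8.83, 8.90 and 8.91, but missed the threshold (-0.51 ± 0.16, limma adjusted p = 0.0544). Within the unspiked set alone it was the 1 gene of the 32 called (limma adjusted p = 0.0238). There 152 of 22626 probe sets were called higher and 241 lower. Cdc25c, a phosphatase that drives entry into division, was dim at a mean level of 2.86 and gave -0.34 ± 0.11 (adjusted p = 0.0575). With the replicate number as a block in the unspiked arrays, Cdc25c was called (adjusted p = 0.0350) beside Syce2 and Trip13 (adjusted p = 0.0283 and 0.000870). That fit called 2687 of 22626 probe sets higher and 2140 lower.

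The start regions of the 4 called genes are shown because these are the genes on which the 12 h and 24 h calls rest. The sequences are from RefSeq on GRCm38.p6, each from 250 bases before to 50 after a listed start, 5′ to 3′ on the gene's strand. Capitals mark 3 motifs searched on both strands: TGACGTCA (the cyclic AMP response element, CRE), CACGTG (an E-box) and TTCCCGCC (an E2F motif). Syce2 and Rad51c each have 2 listed starts, and the downstream start of Syce2 and both of Rad51c are given.
Syce2, chr8:84872008-84872307, plus strand: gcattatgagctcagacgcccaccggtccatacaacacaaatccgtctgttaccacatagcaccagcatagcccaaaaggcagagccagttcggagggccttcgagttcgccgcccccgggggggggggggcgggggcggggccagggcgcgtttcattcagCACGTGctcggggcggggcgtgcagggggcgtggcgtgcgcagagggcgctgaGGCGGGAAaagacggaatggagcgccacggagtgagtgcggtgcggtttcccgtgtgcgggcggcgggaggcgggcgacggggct
Rad51c, chr11:87404457-87404756, minus strand: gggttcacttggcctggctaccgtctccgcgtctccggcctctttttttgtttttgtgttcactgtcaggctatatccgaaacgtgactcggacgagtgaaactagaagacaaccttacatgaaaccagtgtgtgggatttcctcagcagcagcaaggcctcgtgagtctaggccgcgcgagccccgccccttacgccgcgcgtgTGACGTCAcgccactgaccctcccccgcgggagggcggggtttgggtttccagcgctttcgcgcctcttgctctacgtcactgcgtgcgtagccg
Rad51c, chr11:87404905-87405204, minus strand: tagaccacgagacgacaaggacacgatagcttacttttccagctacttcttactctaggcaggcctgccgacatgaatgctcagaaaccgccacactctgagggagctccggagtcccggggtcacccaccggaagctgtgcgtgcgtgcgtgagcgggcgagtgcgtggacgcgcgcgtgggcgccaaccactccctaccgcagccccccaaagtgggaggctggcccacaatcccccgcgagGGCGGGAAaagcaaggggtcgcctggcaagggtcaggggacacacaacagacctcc
Dmc1, chr15:79605060-79605359, minus strand: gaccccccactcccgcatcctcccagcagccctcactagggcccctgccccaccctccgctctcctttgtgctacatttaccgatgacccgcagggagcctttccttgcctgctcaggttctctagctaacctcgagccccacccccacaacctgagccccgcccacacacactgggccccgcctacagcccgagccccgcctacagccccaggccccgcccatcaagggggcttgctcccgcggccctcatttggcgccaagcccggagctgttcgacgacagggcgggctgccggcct
Trip13, chr13:73937718-73938017, minus strand: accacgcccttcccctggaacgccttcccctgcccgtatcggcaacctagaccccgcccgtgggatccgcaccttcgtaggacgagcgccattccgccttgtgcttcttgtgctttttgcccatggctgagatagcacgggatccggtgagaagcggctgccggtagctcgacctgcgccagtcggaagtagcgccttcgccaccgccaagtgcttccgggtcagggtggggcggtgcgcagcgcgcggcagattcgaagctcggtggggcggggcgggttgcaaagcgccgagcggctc

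The Syce2 window held the E-box from position -88 and the E2F motif from -35, counted from the start. The Rad51c windows held the CRE from -45 of one start and the E2F motif from -6 of the other. The windows of Dmc1 and Trip13 held none of the 3 letter strings, so the 4 genes shared none. The upstream start of Syce2 held none of them either. A start region was listed for 32 of the 38 genes, with 19 prophase and 13 late spermatocyte genes among them. Of the 19 prophase genes 6 had the E2F motif in at least 1 window, and 6 had the E-box, 3 of them both. Counted by window, 29.2% of the 24 prophase windows held the E2F motif and 29.2% the E-box, beside 2.19% and 7.15% of all 32851 windows of this length. Of the 18 windows of late spermatocyte genes 0% held the E2F motif and 11.1% the E-box. The CRE was in 4.17% and 5.56% of the windows of these classes and 1.79% of all. A match is a description of the letters and not a measured binding site.

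After 72 h none of the 32 genes was called, where 2.5% of all probe sets were called lower and 3.63% higher. At an unadjusted p under 0.05 there were 4 of 32, beside 16.5% of all probe sets, namely Syce2 (-0.36 ± 0.12, limma adjusted p = 0.0926), Dmc1 (-0.42 ± 0.14, adjusted p = 0.106), Rec8, a meiotic cohesin subunit (-0.61 ± 0.24, adjusted p = 0.193), and Ccna1 (-1.31 ± 0.48, adjusted p = 0.149). Syce2 read 10.02, 10.14, 9.82 and 10.21 at 72 h, all below controls 4 to 7. Dmc1 read 7.94, 8.35, 8.14 and 8.68, and the last value overlapped the controls. Without that mouse, 72 h replicate 4, Dmc1 was called lower (-0.56, adjusted p = 0.0209), and without control 5 Ccna1 was called lower (-1.75, adjusted p = 0.0325). Without control 6 again 0 of the 32 were called, where 5.69% of all probe sets were called. In that fit Syce2 gave -0.36 ± 0.13, Dmc1 -0.48 ± 0.15 and Rec8 -0.62 ± 0.27 (limma adjusted p = 0.146, 0.0911 and 0.261). At an unadjusted p under 0.05 there were then 5 of 32, beside 16.7% of all probe sets.

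Between 72 h and 12 h, both in the spiked set, 0 of 32 genes were called in a comparison that called 2.36% of all probe sets. At an unadjusted p under 0.05 there were 2 of 32, beside 11.1% of all probe sets. These were Rad51c (0.47 ± 0.17 higher at 72 h, limma adjusted p = 0.250) and Msh5, a mismatch repair homologue of crossing over (0.30 ± 0.13, adjusted p = 0.378). Rad51c read 6.91, 6.70, 6.39 and 6.50 at 72 h, which overlapped the controls. The change at 24 h minus the change at 12 h was called for 0 of 32 genes and 0.875% of probe sets, with 2 of 32 and 16.5% of probe sets at an unadjusted p under 0.05. These were Rad51c (0.79 ± 0.26, adjusted p = 0.177) and Trip13 (-0.53 ± 0.21, adjusted p = 0.239). Without control 6 they gave 0.64 ± 0.24 and -0.53 ± 0.22 (limma adjusted p = 0.293 and 0.355). The change at 24 h minus that at 72 h was called for 0 of 32 genes and 0.371% of probe sets, and 1 of 32, Trip13, had an unadjusted p under 0.05 (-0.57 ± 0.21, adjusted p = 0.317), as did 11.3% of probe sets. The 12 h and 72 h comparisons share controls 4 to 7.

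**Figure D3:**
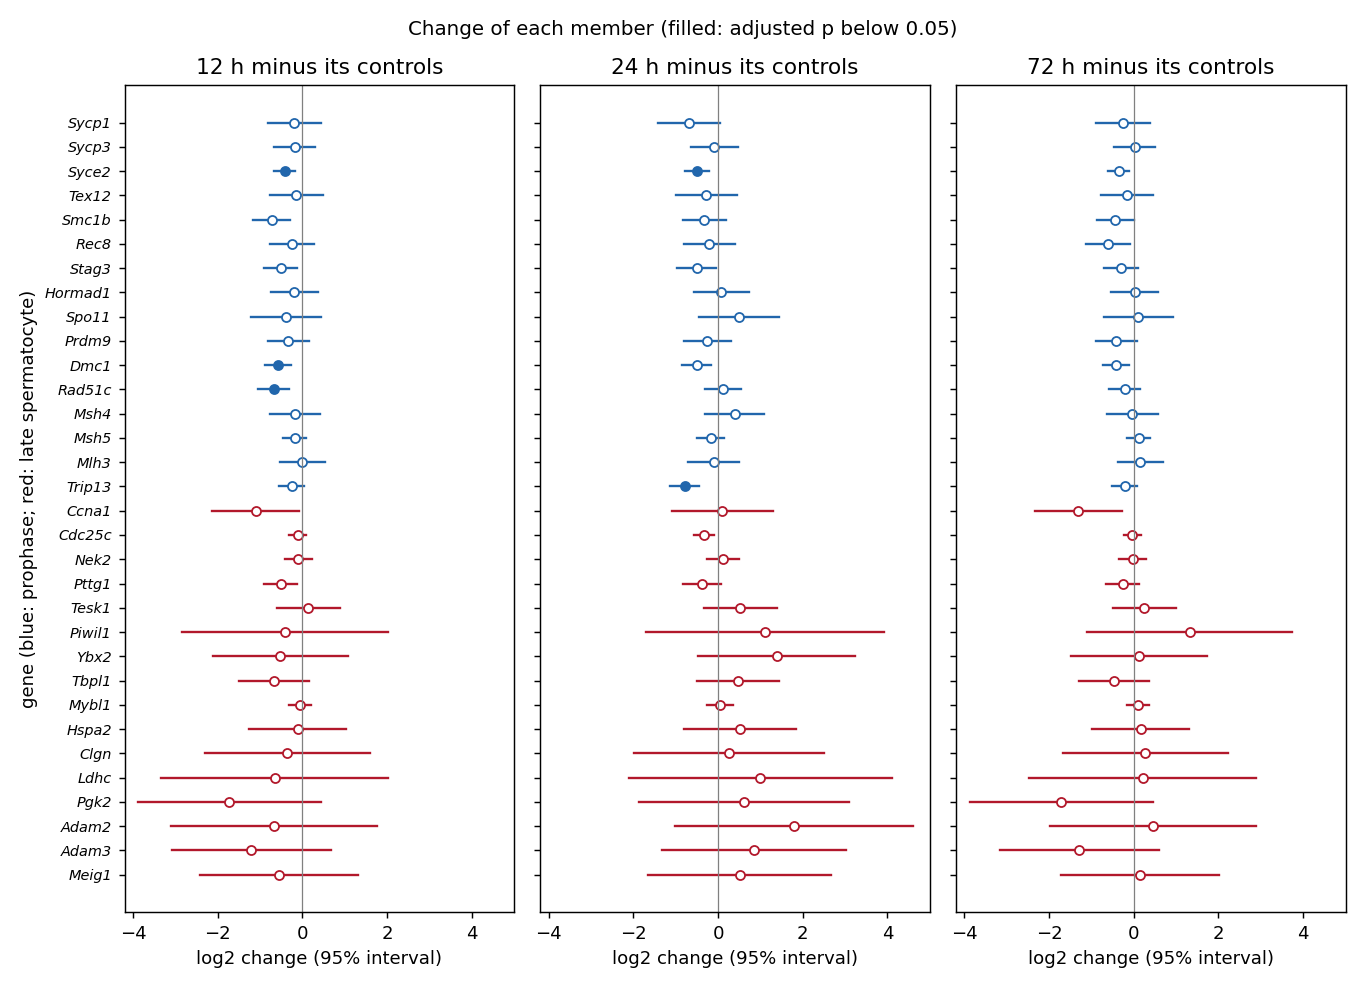
Log2 difference of each of the 32 measured genes from the controls of the same technical set after 12, 24 and 72 h of FSH, with 95% intervals from limma; filled points have an adjusted p below 0.05. Prophase genes had narrow intervals, and most late spermatocyte genes had intervals several log2 units wide that spanned 0 at each time.

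Other prophase genes changed as follows. Of 15 further measured genes of the entry to meiosis, recombination and germ cell RNA control, 0 were called at 12 h, 4 lower at 24 h and 2 lower at 72 h, and 0 were called higher at any time. Of all probe sets, 2.16%, 7.26% and 2.5% were called lower at 12, 24 and 72 h, and 3.2%, 6.1% and 3.63% higher. Stra8, which the germ cell needs to enter meiosis, fell at 24 h (-1.06 ± 0.20, limma adjusted p = 0.00353) and at 72 h (-1.03 ± 0.18, adjusted p = 0.00239). It read 8.94, 8.69 and 8.51 at 24 h against 9.69, 10.18 and 9.46 in controls 1 to 3. At 72 h it read 8.61, 8.90, 8.64 and 9.21, all below the 9.64 to 10.19 of controls 4 to 7. Tex19.1, a germ cell gene that restrains retrotransposons, fell at 24 h (-0.45 ± 0.11, adjusted p = 0.0117) and at 72 h (-0.37 ± 0.09, adjusted p = 0.0258). The 72 h differences of Stra8 and Tex19.1 include control 6, the highest array for Tex19.1 (8.52). Tex14, a component of the bridges between germ cells, fell at 24 h (-0.88 ± 0.16, adjusted p = 0.00304), as did Brca2, which acts in homologous recombination (-0.53 ± 0.16, adjusted p = 0.0434). The germ cell genes Dazl and Ddx4 were not called at any time. Dazl gave -0.19, -0.39 and -0.32 and Ddx4 -0.10, -0.27 and 0.04 at 12, 24 and 72 h.

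The remaining prophase genes were not called at any time. Sycp3, a lateral element protein of the synaptonemal complex, read 12.01, 11.79, 11.74 and 11.32 at 12 h, 11.77, 11.80, 11.75 and 12.33 at 72 h, and 11.91, 11.69, 11.75 and 12.22 in controls 4 to 7. In the unspiked set it read 11.21, 11.32 and 12.04 at 24 h and 11.78, 11.09 and 11.96 in controls. The groups overlapped at each time, with differences of -0.18 ± 0.23, -0.08 ± 0.26 and 0.02 ± 0.23. Sycp1, which bridges the lateral elements, and Tex12, of the central element, gave 95% intervals that spanned 0 at each time. So did Hormad1 of the chromosome axis, Spo11, which makes the programmed breaks, Msh4 and Mlh3 of crossing over and Prdm9, which marks the sites of breaks. Prdm9 gave -0.33 ± 0.23 at 12 h and -0.41 ± 0.23 at 72 h, and -0.54 ± 0.20 and -0.63 ± 0.20 without control 6, where it was still not called (limma adjusted p = 0.18 and 0.0958). Stag3, a cohesin subunit, was -0.51 ± 0.18 at 12 h (limma adjusted p = 0.153) and -0.50 ± 0.21 at 24 h (adjusted p = 0.128). Without control 6 its 12 h difference was -0.56 ± 0.20 (limma adjusted p = 0.177).

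Marker genes of other cell types were counted in the same fits, with control 6 included. Of all probe sets, 2.16%, 7.26% and 2.5% were called lower at 12, 24 and 72 h. The shares called higher were 3.2%, 6.1% and 3.63%. Among 11 spermatogonial genes 1, 4 and 2 were called lower at 12, 24 and 72 h and 0 higher, and their mean level was 5.91 to 6.31 at 24 h and 6.53 to 6.92 in controls 1 to 3. Kit, the receptor of differentiating spermatogonia, was among those lower at 24 h (-1.39 ± 0.33, limma adjusted p = 0.0126). Among 20 genes of the mitotic cell cycle 0, 2 and 0 were called lower and 0 higher. Of the 11 Sertoli cell genes 3, 3 and 5 were called higher and 2, 1 and 1 lower, and their mean level was 9.45 to 9.68 at 72 h, above the 8.81 to 9.10 of controls 4 to 7. This mean mixes genes that moved in opposite directions. Rhox5 read 8.07 to 8.68 at 72 h and 3.02 to 5.56 in controls 4 to 7, and Sox9 7.86 to 8.35 and 8.64 to 8.98. The 5 Leydig cell genes averaged 7.77 to 8.16 at 12 h and 5.94 to 7.10 in controls 4 to 7. Spermatid genes were called higher once at 24 h, 1 of 20, and were not called at the other times. The part of these cell types in the values of the meiotic genes was not tested.

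Late spermatocyte genes were not called at 12, 24 or 72 h. At an unadjusted p under 0.05 there were 2 at 12 h (Ccna1 and Pttg1), 1 at 24 h (Cdc25c) and 1 at 72 h (Ccna1), of 16 each time, beside 15.5%, 31.3% and 16.5% of all probe sets. Their error was wide, with a median SE of 0.64 at 12 h, beside 0.23 for the prophase genes. The spread between mice of a group was taken as an SD pooled over the 5 groups. It exceeded 0.5 log2 units in 12 of 16 late spermatocyte genes, in 1 of 16 prophase genes and in 4.92% of all genes. The median SD was 0.95 for late spermatocyte genes, 0.33 for prophase genes and 0.19 for all genes.

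**Figure D4:**
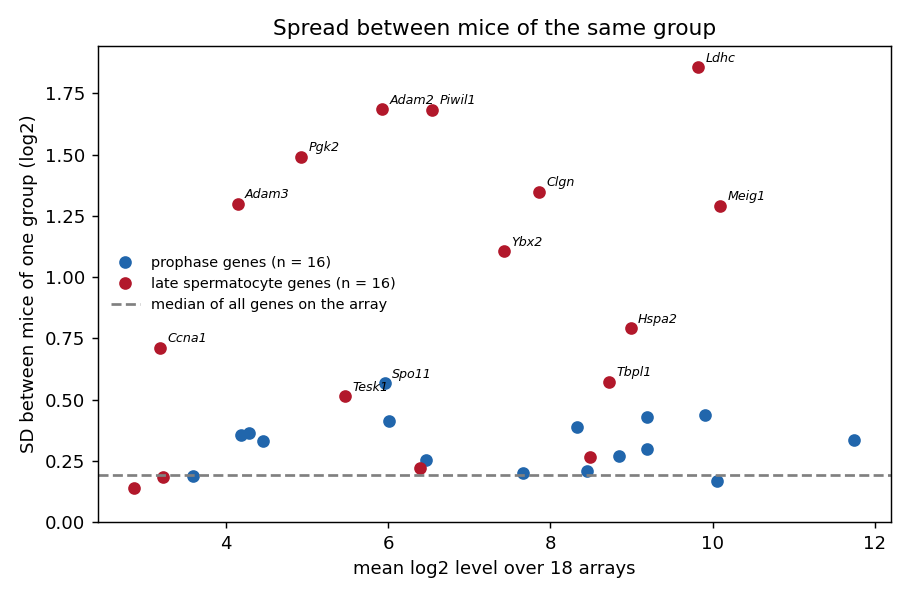
SD between mice of the same group (log2, pooled over 5 groups) against the mean log2 level of each of the 32 genes, with the median SD of all genes as a dashed line. Ldhc, Adam2, Piwil1 and Pgk2 had the highest SD, at 1.86, 1.68, 1.68 and 1.49, and Spo11 was the 1 prophase gene above 0.5, at 0.57.

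Among energy enzymes, Ldhc, the germ cell lactate dehydrogenase, had the highest SD of the 32 genes, above that of 99.85% of all genes. It read 10.53, 9.79, 10.01 and 8.37 at 12 h, 11.27, 10.82, 9.97 and 10.08 at 72 h, and 10.96, 6.48, 12.42 and 11.45 in controls 4 to 7. In the unspiked set it read 10.28, 6.89 and 11.63 at 24 h and 7.64, 7.22 and 10.95 in controls 1 to 3. In the spiked set the lowest and the highest mouse were both controls, at 6.48 and 12.42. The 12 h and 72 h mice lay between them, from 8.37 to 11.27, and no 72 h mouse was below 9.97. In the unspiked set low and high mice occurred among both 24 h mice and controls. The highest array was 61.5-fold above the lowest. The differences were -0.65 ± 1.25 at 12 h, 0.998 ± 1.45 at 24 h and 0.21 ± 1.25 at 72 h, with a 95% interval at 12 h from -3.34 to 2.03. A change of less than several fold was thus not detectable here. A second probe set of Ldhc gave -0.47, 0.75 and 0.49.

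Pgk2 encodes the phosphoglycerate kinase that replaces the X-linked form in male germ cells. It read 6.01, 4.64, 4.66 and 3.56 at 12 h, 5.87, 4.84, 4.21 and 4.02 at 72 h, and 5.99, 3.53, 10.04 and 6.21 in controls 4 to 7. In the unspiked set it read 4.83, 3.82 and 4.84 at 24 h and 3.11, 3.75 and 4.79 in controls. Control 6 was 3.83 log2 units above the next control. The difference at 12 h was -1.73 ± 1.01 with control 6 and -0.53 ± 0.72 without it, and at 72 h -1.71 ± 1.01 and -0.51 ± 0.72, none of them called.

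Among sperm surface and flagellum genes, Meig1, needed to build the flagellum, read 10.95, 10.29, 9.86 and 8.86 at 12 h, 11.20, 10.85, 10.34 and 10.40 at 72 h, and 10.90, 8.14, 12.02 and 11.15 in controls 4 to 7. At 24 h it read 10.15, 7.87 and 11.14, and in controls 1 to 3 8.37, 8.26 and 10.99. The same mice were low as for Ldhc, and the groups overlapped. Adam3, a surface protein that sperm need for fertilisation, was under log2 4 in 9 of 18 arrays. It read 4.80, 2.09, 7.52 and 5.88 in controls 4 to 7, 4.29, 3.20, 4.04 and 3.93 at 12 h and 4.93, 3.69, 3.12 and 3.39 at 72 h. In the unspiked set it read 4.06, 3.71 and 5.35 at 24 h and 2.38, 3.71 and 4.48 in controls. Control 6 was 1.64 above the next control, and the 12 h difference moved from -1.21 ± 0.88 to -0.39 ± 0.78 without it. Adam2, the partner of other sperm ADAM proteins, ranged from 3.04 to 8.04 over the 18 arrays.

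The chaperones followed the same pattern. Hspa2, a heat shock protein that spermatocytes need to finish meiosis, read 9.30, 8.96, 8.85 and 8.00 at 12 h, 9.33, 9.08, 8.79 and 9.04 at 72 h, and 9.13, 7.47, 9.75 and 9.22 in controls 4 to 7. At 24 h it read 9.45, 8.31 and 10.46, and in controls 1 to 3 8.44, 8.22 and 9.99. The groups overlapped, and the differences were -0.11 ± 0.54, 0.52 ± 0.62 and 0.17 ± 0.54. Clgn, a chaperone of the endoplasmic reticulum for sperm surface proteins, ranged from 5.10 to 9.64.

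Among genes of RNA and transcription control, Tbpl1, a relative of the TATA-binding protein, read 8.84, 8.63, 8.49 and 7.94 at 12 h, 8.96, 8.73, 8.50 and 8.50 at 72 h, and 8.90, 8.20, 10.16 and 9.34 in controls 4 to 7. At 24 h it read 8.83, 8.20 and 9.61, and in controls 1 to 3 8.37, 7.85 and 9.01. It gave -0.67 ± 0.39 at 12 h, or -0.34 ± 0.36 without control 6. Piwil1, which binds the small RNAs of pachytene spermatocytes, ranged from 3.32 to 8.55 and Ybx2, which stores germ cell mRNA, from 5.05 to 9.34. Mybl1 was dim in all arrays, at 2.80 to 3.85.

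Among division control genes the SD was low for Cdc25c, Nek2 and Pttg1 (0.14, 0.22 and 0.27) and higher for Tesk1 and Ccna1 (0.51 and 0.71). Pttg1, the securin of sister chromatid separation, read 8.73, 8.53, 8.36 and 8.05 at 12 h, 8.68, 8.69, 8.78 and 8.52 at 72 h, and 8.77, 8.81, 9.31 and 8.84 in controls 4 to 7. At 24 h it read 8.00, 7.45 and 8.40, and in controls 1 to 3 8.34, 8.27 and 8.35. All 12 h mice lay below all their controls, by -0.51 ± 0.18 (limma adjusted p = 0.142). Without control 6, its highest array, Pttg1 gave -0.39 ± 0.18 at 12 h (limma adjusted p = 0.355). Its other probe sets gave -0.63 ± 0.28 and -1.33 ± 0.64 at 12 h, also not called. Ccna1, the germ cell cyclin A, was dim at a mean level of 3.18. It read 3.62, 2.78, 6.18 and 3.81 in controls 4 to 7, 3.29, 2.89, 2.92 and 2.87 at 12 h and 2.96, 2.91, 2.61 and 2.68 at 72 h. It read 2.97, 2.96 and 3.12 at 24 h and 2.90, 2.92 and 2.91 in controls 1 to 3, so it was at most 3.29 outside controls 4, 6 and 7. Its differences of -1.10 ± 0.48 at 12 h and -1.31 ± 0.48 at 72 h became -0.41 ± 0.19 and -0.61 ± 0.19 without control 6, and none was called. Nek2, a kinase of centrosome separation, Tesk1, a testis kinase, and Cdc25c ranged over 0.94, 1.91 and 0.73 log2 units in all 18 arrays.

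Most late spermatocyte genes were high or low in the same mice. Over the 13 late spermatocyte genes with a mean level of at least 4, the median distance from each gene's own mean ran from -1.63 in control 5 to 1.78 in control 6 among controls 4 to 7. It ran from -1.06 to 0.31 at 12 h and from 0.15 to 0.94 at 72 h, from -1.04 to 1.07 at 24 h and from -1.72 to 0.47 in controls 1 to 3. Over 15 such prophase genes it stayed between -0.42 and 0.46 in all 18 arrays. The range was thus 3.50 log2 units for late spermatocyte genes, or 2.79 without control 6, and 0.89 for prophase genes, with or without control 6.

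**Figure D5:**
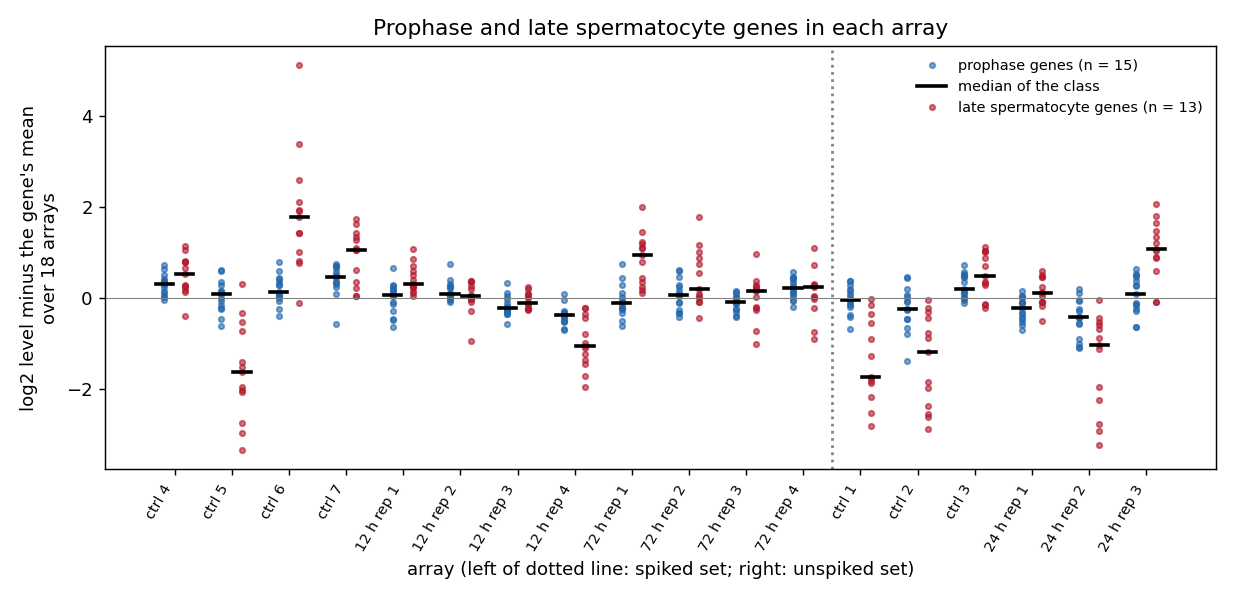
Distance of each gene from its own mean over 18 arrays (log2), array by array, for 15 prophase genes (blue) and 13 late spermatocyte genes (red) with a mean level of at least 4; bars are medians and the dotted line separates the technical sets. The red medians span -1.72 to 1.78 and the blue medians -0.42 to 0.46.

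The relation was measured against Ldhc, the gene of highest spread, chosen after its values were seen. In the 12 spiked arrays, 8 of the 15 other late spermatocyte genes had a Pearson r above 0.8, as did 1 of 16 prophase genes and 2.35% of all 12392 genes other than Ldhc. These arrays pool 12 h, 72 h and control mice with group means left in. Differences between the groups therefore enter r and its permutation p beside differences between mice. The difference between the gene classes was not tested. For Clgn r was 0.985 and Spearman's rho 0.944, each with a permutation p of 1e-05, the smallest that 100000 resamples can give (two-sided, adjusted p = 7.2e-05 and 0.00012 over 36 relations). For Meig1 r was 0.980 and rho 0.951, and for Adam2 r was 0.976 and rho 0.979, with the same p. Without controls 5 and 6, the arrays farthest from the median of Ldhc, r was 0.957, 0.958 and 0.951. Spo11 was the prophase gene above 0.8 (r = 0.891, permutation p = 7e-05, adjusted p = 0.00042, rho = 0.939, permutation p = 3e-05, adjusted p = 0.00027, and r = 0.947 without controls 5 and 6). A splice form of Spo11 is known to appear late in prophase, and the probe set was not assigned to a form here.

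For Sycp3 r with Ldhc was 0.409 (permutation p = 0.186, adjusted p = 0.313) and rho 0.538 (permutation p = 0.0745, adjusted p = 0.151), and r was 0.622 without controls 5 and 6. For Dazl r was -0.055 (permutation p = 0.871, adjusted p = 0.910) and rho 0.028 (permutation p = 0.939, adjusted p = 0.939), with r = 0.367 without those arrays. Without controls 5 and 6, r was 0.696 for Syce2, 0.694 for Smc1b, 0.673 for Stag3 and 0.607 for Rad51c, above their values in all 12 spiked arrays (0.277, 0.380, 0.407 and 0.446). The actin 3 prime minus 5 prime difference, a sign of RNA quality, was 1.22 to 1.82 in the spiked arrays. Its r with Ldhc was 0.434 (permutation p = 0.158, adjusted p = 0.297), rho 0.497 (permutation p = 0.104, adjusted p = 0.182) and r without those arrays 0.416. Its part in the spread was not tested.

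In the 6 unspiked arrays Ldhc fell into separate clusters, with 3 arrays at 6.89 to 7.64 and 3 at 10.28 to 11.63, so no pooled correlation is given for them. The 3 arrays lowest for Ldhc, 24 h replicate 2 and controls 1 and 2, were also the 3 lowest for 11 of the 15 other late spermatocyte genes and for 5 of 16 prophase genes. Those 5 were Tex12, Hormad1, Spo11, Rad51c and Msh4. In the spiked set, control 5 was the lowest array for 9 of the 15 and for 1 prophase gene, Sycp1.

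Control 6 was the highest of all 18 arrays for 11 of 16 late spermatocyte genes, for 1 of 16 prophase genes, Rad51c, and for 8.81% of all genes. In Pgk2, Ccna1 and Adam3 it exceeded controls 4, 5 and 7 by more than 1 log2 unit. At 12 h the median estimate of the 16 late spermatocyte genes was -0.52, with 15 of 16 below 0. Without control 6 it was -0.08, with 11 of 16 below 0. At 72 h the median was 0.11, with 7 of 16 below 0, and 0.29 without control 6, again with 7. At 24 h, where control 6 took no part in the contrast, it was 0.52, with 2 of 16 below 0. The medians of all genes were -0.0048, 0.0124 and 0.038 at 12, 72 and 24 h (-0.0381, -0.0287 and -0.0902 at a mean level of at least 4), and no late spermatocyte gene was called at any of these times with or without control 6. The prophase median at 12 h was -0.25 with and -0.26 without control 6, and of the 3 prophase calls only Dmc1 kept its call, where 2.06% of all probe sets were called lower.

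Of 14 further measured genes of late spermatocytes, 0 were called at 12, 24 or 72 h, and 0, 0 and 1 had an unadjusted p under 0.05, where 15.5%, 31.3% and 16.5% of all probe sets did. Their median estimates were -0.66, 0.64 and -0.08, and at 12 h and 72 h -0.14 and 0.36 without control 6. In control 6, 10 of the 14 were at their highest and 6 were more than 1 log2 unit above all other arrays.

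The start region of Ldhc is shown as that of the gene with the highest spread. Of its 2 listed starts the upstream one is given. It is from RefSeq on GRCm38.p6, 5′ to 3′ on the gene's strand, with capitals for AACNG, the core of the MYB motif, on both strands (overlapping matches run together).
Ldhc, chr7:46861013-46861312, plus strand: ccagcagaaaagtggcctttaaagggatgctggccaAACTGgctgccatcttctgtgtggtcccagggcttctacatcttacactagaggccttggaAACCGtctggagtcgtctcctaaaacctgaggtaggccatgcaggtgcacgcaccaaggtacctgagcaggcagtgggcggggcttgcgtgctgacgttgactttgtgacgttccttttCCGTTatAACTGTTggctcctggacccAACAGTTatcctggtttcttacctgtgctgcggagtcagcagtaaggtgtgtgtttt

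The downstream window held 3 matches. The printed window held 7 matches, at -214, -153, -34, -27, -25, -7 and -5 from the start. The string is short, and 80.3% of all 32851 windows held at least 1 match, with 83.3% of the windows of late spermatocyte genes and 91.7% of those of prophase genes.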

How the data were processed

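RNA of 18 whole testes was measured on MOE430A arrays. RMA and GCRMA are both listed in the submitters' processing notes, but not which of them made the table. The authors deposited values taken here as log2 from their range (1.03 to 15.2). Probe sets were named by the platform annotation where it gave 1 symbol (20380 of 22626 tested, with 64 array controls left out). limma 3.58.1 in R 4.3.3 fitted a mean for each of 12 h, 24 h, 72 h, controls 1 to 3 and controls 4 to 7 (13 residual degrees of freedom), with Benjamini-Hochberg adjustment over 22626 probe sets and a call at an adjusted p below 0.05. Values are log2 differences with their standard error (SE).

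The technical sets were read from the spike-in. The numbers of 24 h mice and controls 1 to 3 went together (correlations of deviations 0.179, 0.343 and 0.406), and the block there was added after this was seen. Those of 12 h and 72 h mice did not (0.107, 0.130, 0.013 and 0.068). The genes and lists were chosen with earlier results of these data known. Values in every array are given for called genes, for the brightest gene of each of 8 role groups and for genes in which control 6 exceeded controls 4, 5 and 7 by more than 1 log2 unit. Genes with a mean level under 4 are called dim. Alternatives were all 7 controls together, each set alone, each array left out, genes with a mean level of at least 4, quantile normalisation, a variance trend, the mean of a gene's probe sets and the replicate block. The number of arrays limits the precision.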

Additional observations from a re-analysis of the deposited data

Results flagged for a closer look

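In groups of 4 arrays, the highest or lowest array was compared with the nearest other array of its group for the 32 genes at 12 h, at 72 h and in controls 4 to 7. Of these 96 groups 8 had an array far from the others, and chance flags about 1 in 20 groups. In 72 h replicate 4 Sycp3 read 12.33 where the next array read 11.80, and Hormad1 read 8.80 where the next read 8.25. In 12 h replicate 4 Spo11 read 5.27 with the next at 5.99, and in 12 h replicate 1 Ccna1 read 3.29 with the next at 2.92. In controls 4 to 7, Piwil1 read 3.57 in control 5 with the next at 7.34, and Pttg1 read 9.31 in control 6 with the next at 8.84. Msh5 read 3.76 in control 7 and Cdc25c 3.04 in control 4, both dim genes with the next arrays at 3.62 and 2.80. No member differed between times by the test of the difference itself.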

How the results depend on the processing

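The counts of called genes rested on few arrays and on the pooled error. Calls over all 22626 probe sets also varied with the setting and are given beside each count. At 12 h the main count of 3 became 0 within the spiked set alone and 0 with the replicate block, and leaving out 1 array gave 0 to 4. The main fit called 723 probe sets higher and 488 lower, the spiked set alone 759 and 597, and the block 100 and 155. Leaving out 1 array called 519 to 757 higher and 345 to 521 lower. At 24 h the count of 2 became 5 against all 7 controls without the technical set and 1 within the unspiked set alone, and leaving out 1 array gave 1 to 3. The main fit called 1381 probe sets higher and 1642 lower, all 7 controls 5283 and 2854, and the unspiked set alone 152 and 241. Leaving out 1 array called 672 to 2076 higher and 1006 to 1805 lower. At 72 h the count of 0 became 1, Dmc1, against all 7 controls, and leaving out 1 array gave 0 to 1. The main fit called 822 probe sets higher and 566 lower, and all 7 controls 1228 and 687. Leaving out 1 array called 579 to 858 higher and 404 to 613 lower. Between 72 h and 12 h it was 0 throughout, and the cause of these shifts was not tested. The replicate block pairs mice by number, though no label links them. Deviations of mice with the same number went together for 24 h and controls 1 to 3 only. They were not compared with mice of different numbers. With the block in those 6 arrays the count at 24 h was 3 in place of 2, where 2687 probe sets were called higher and 2140 lower. With the block in all arrays, 7 residual degrees of freedom remained and Syce2 was lost at 24 h (adjusted p = 0.0898). Over 2420 values of single genes under alternatives, 2258 kept direction and side of the threshold, 40 lost and 25 gained a call, 97 uncalled values changed sign and 0 called values did. Dim probe sets and the 6 unspiked arrays limit what could be detected.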
